A study of Mus musculus with 16 samples.

Results

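Ttr, Aqp1, Slc4a5, Clic6, Kcne2, Folr1, Prlr, Kl, Sostdc1 and Otx2 are genes of the choroid plexus epithelium. They were chosen by name, with earlier results of these data known, and all 10 were found among the 24421 gene rows that each of the 16 count tables holds. The tables come from RNA sequencing of striatum, which receives most of the cortical input of the basal ganglia, in mice aged 13 months. BACHD+Foxp2 mice were BACHD animals injected with a Foxp2 virus, meant to raise this forkhead transcription factor, which striatal projection neurons normally express. BACHD+Con mice were BACHD animals injected with a control virus. Con+Foxp2 mice had the control genotype and received the Foxp2 virus, and Con+Con mice had the control genotype and the control virus. Each group held 4 mice, and every mouse of the study had been injected. The BACHD transgene, a bacterial artificial chromosome, brings in mutant human huntingtin with its own regulatory sequences, and the mice serve as a model of Huntington disease. The sources used here do not give the strain, the sex, the virus type and promoter, or the time between injection and harvest.

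The choroid plexus is a sheet of cuboidal epithelium on a vascular core that hangs in the brain ventricles and secretes the cerebrospinal fluid. Ion transporters and water channels of its apical and basolateral membranes move sodium, bicarbonate, chloride and water into the ventricle, and its secreted carriers, among them transthyretin, take hormones and vitamins with them. The lateral ventricle, with its choroid plexus, borders the striatum, and transthyretin is a common marker of choroid plexus RNA in brain dissections. In bulk tissue, fewer cells of a type and less RNA per cell cannot be told apart, so a level below stands for the RNA of the whole dissection.

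All 10 are protein-coding genes in the GENCODE M21 annotation of GRCm38, the assembly also known as mm10. Aqp1 lies at chr6:55336432-55348555, Slc4a5 at chr6:83219828-83304945, Clic6 at chr16:92485736-92541243 and Kcne2 at chr16:92292389-92298129. Folr1 lies at chr7:101858331-101870788 on the minus strand, Prlr at chr15:10177238-10349180, Kl at chr5:150952607-150993817, Sostdc1 at chr12:36314139-36318452 and Otx2 at chr14:48657677-48673819 on the minus strand. The genes without a strand given are on the plus strand.

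The promoters of the genes are shown because their RNAs varied together from library to library, as described further on. RefSeq windows on GRCm38.p6, each of 300 bases around an annotated start, were found for 6 of the 10 genes (Kl, Aqp1, Slc4a5, Otx2, Prlr and Kcne2), with 12 windows in all. They were searched on both strands for TAATCC, a core bound by OTX homeobox factors such as the member Otx2, and for TGTTTAC, a core bound by forkhead factors, the family of Foxp2. TAATCC was present in 1 of the 12 windows, against 7.06% of all 32851 windows, and TGTTTAC also in 1 of the 12, against 3.65% of all windows. The OTX letters lie in an Otx2 window at chr14:48665060-48665359 (minus strand), and the forkhead letters in a Prlr window at chr15:10223656-10223955 (plus strand). A Kcne2 window at chr16:92292139-92292438 (plus strand), which held neither motif, is given beside them for the gene among the 9 others with the highest Spearman rho to Ttr (0.967 over the 16 libraries). The capitals start at base 40 of the Otx2 window and at base 36 of the Prlr window. Each window is printed 5′ to 3′ on the strand of its gene, with the matched letters in capitals; GGATTA is TAATCC read on the other strand. A match is a description of these letters, not a binding site.
Otx2: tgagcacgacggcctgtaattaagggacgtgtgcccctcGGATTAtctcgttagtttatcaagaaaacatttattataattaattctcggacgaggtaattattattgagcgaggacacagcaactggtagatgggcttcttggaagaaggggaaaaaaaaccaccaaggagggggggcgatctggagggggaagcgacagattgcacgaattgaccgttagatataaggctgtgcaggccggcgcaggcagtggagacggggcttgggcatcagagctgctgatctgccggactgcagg
Prlr: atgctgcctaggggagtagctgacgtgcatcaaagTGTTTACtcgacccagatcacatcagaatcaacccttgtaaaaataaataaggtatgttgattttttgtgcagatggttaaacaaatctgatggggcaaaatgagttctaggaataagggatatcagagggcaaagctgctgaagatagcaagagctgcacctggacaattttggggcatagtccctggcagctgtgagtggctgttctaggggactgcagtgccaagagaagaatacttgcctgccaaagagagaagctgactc
Kcne2: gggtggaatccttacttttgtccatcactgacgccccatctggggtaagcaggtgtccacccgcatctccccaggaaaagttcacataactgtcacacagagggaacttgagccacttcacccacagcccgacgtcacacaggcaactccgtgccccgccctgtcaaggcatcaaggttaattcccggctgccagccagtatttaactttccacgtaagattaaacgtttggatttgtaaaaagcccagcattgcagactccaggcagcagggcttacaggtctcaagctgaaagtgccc

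Between 2660395 and 3669748 reads per library were assigned to genes, and levels are given as CPM, the depth-scaled read count, with library sizes adjusted by the trimmed mean of M values. At this depth 3 reads in a library correspond to 0.818 to 1.13 CPM. The delivered gene, Foxp2, stood at 1291 to 1929 CPM in BACHD+Foxp2, 87.3 to 152.8 in BACHD+Con, 3500 to 4389 in Con+Foxp2 and 93.2 to 149.6 in Con+Con libraries. The libraries of both Foxp2 groups were thus all above those of the control-virus groups. BACHD+Foxp2 and Con+Foxp2 did not overlap, with BACHD+Foxp2 lower. In BACHD+Foxp2 over Con+Foxp2 and in the interaction, genotype and Foxp2 level therefore cannot be told apart. All 16 markers of striatal projection neurons were present, with a summed level of 5102 to 10180 CPM per library. Globin genes were at 0 in all libraries, and of the red cell list only Alas2, the erythroid heme synthesis enzyme, had reads.

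Ttr encodes transthyretin, the thyroxine and retinol carrier that the choroid plexus secretes into the cerebrospinal fluid. It stood at 149, 179.7, 4702 and 376 CPM in BACHD+Foxp2 mice 1 to 4, and at 89.7, 10114, 119.5 and 267 CPM in BACHD+Con mice 1 to 4. In Con+Foxp2 mice 1 to 4 it stood at 190.0, 327, 2843 and 2588 CPM, against 7119, 188, 2810 and 3156 CPM in Con+Con mice 1 to 4. Each group thus held libraries of both kinds, high and low, and all 4 groups overlapped. Ordered by Ttr, 7 libraries lay between 2588 and 10114 CPM and 9 between 89.7 and 376 CPM, with a step of 6.89-fold between the neighbours on either side. The next largest step between neighbours was 1.51-fold. The 7 libraries with high Ttr were 1 of 4 in BACHD+Foxp2 (mouse 3), 1 of 4 in BACHD+Con (mouse 2), 2 of 4 in Con+Foxp2 (mice 3 and 4) and 3 of 4 in Con+Con (mice 1, 3 and 4). This division was made from the Ttr values themselves and is not a grouping of the study. In BACHD+Con mouse 2, Ttr took 1.02% of all gene reads (exact 95% binomial interval 1.00% to 1.03%) and was the gene with rank 3 in the library. In BACHD+Con mouse 1 it took 0.00892% (0.00787% to 0.0101%) and had rank 2670. These intervals cover counting error only.

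**Figure D1:**
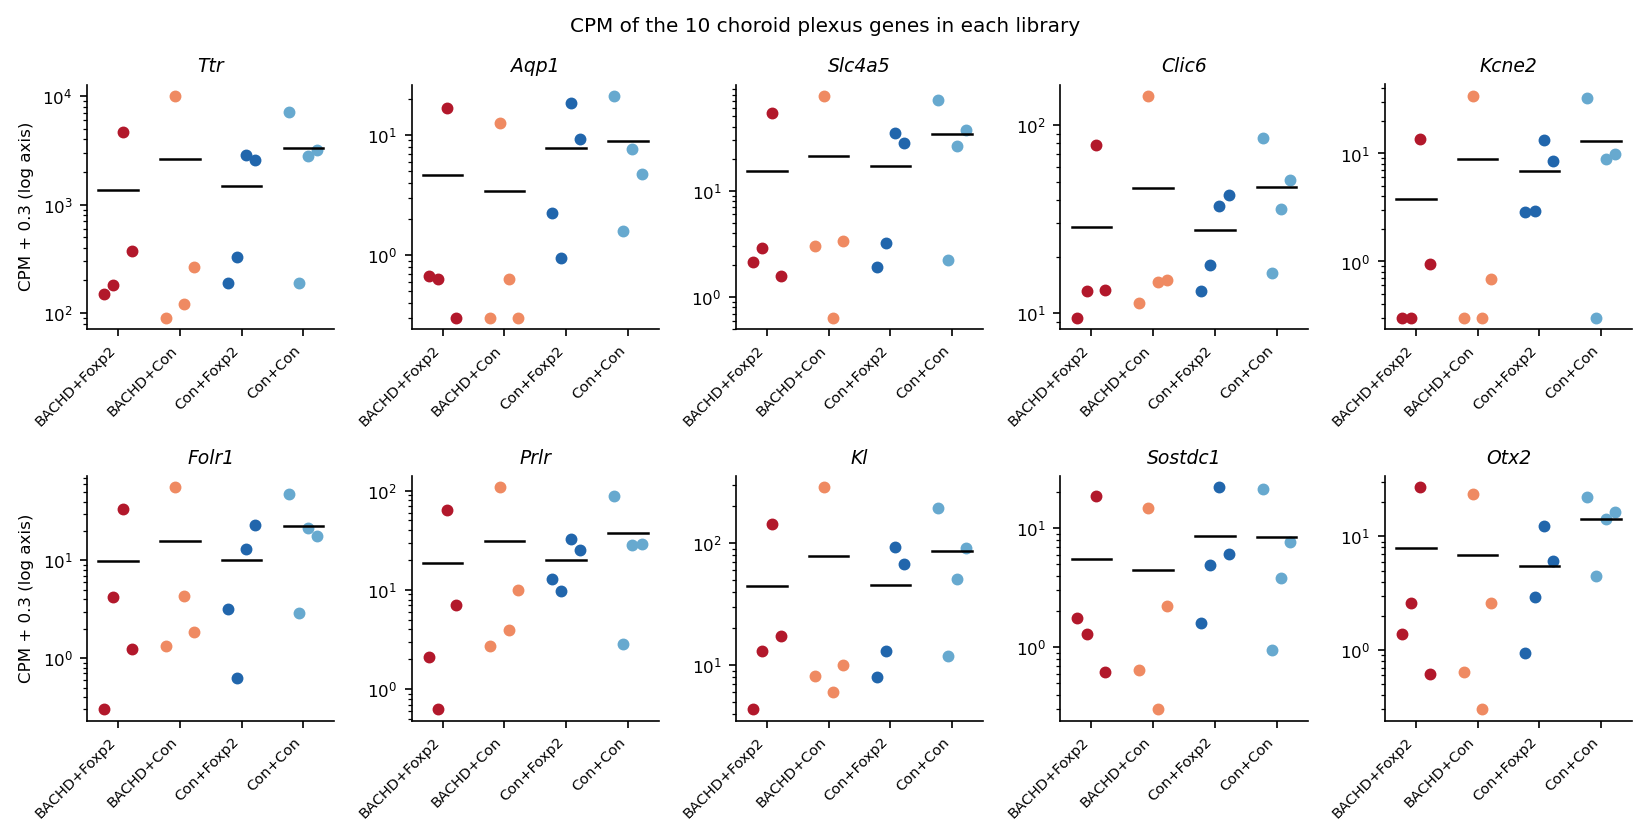
CPM of each of the 10 genes, plus 0.3 so that 0 can be drawn, on a log axis. Each point is 1 library (4 mice per group, from left to right BACHD+Foxp2, BACHD+Con, Con+Foxp2 and Con+Con), and the line is the group mean. In the BACHD+Foxp2 and BACHD+Con groups a lone library, mouse 3 and mouse 2, stands above the other 3 in every panel.

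Of the transport proteins, Aqp1, the water channel of the apical membrane, was at 0.366, 0.327, 16.5 and 0 CPM in BACHD+Foxp2 mice 1 to 4 and at 0, 12.2, 0.336 and 0 CPM in BACHD+Con mice 1 to 4. In Con+Foxp2 mice 1 to 4 Aqp1 was at 1.93, 0.654, 18.2 and 9.01 CPM, against 20.9, 1.29, 7.39 and 4.46 CPM in Con+Con mice 1 to 4. The high libraries were the same 7 as for Ttr, and 279 of the 294 Aqp1 reads of the study came from them. Slc4a5, a sodium bicarbonate cotransporter, was at 1.83, 2.62, 54.0 and 1.28 CPM in BACHD+Foxp2 mice 1 to 4 and at 2.75, 78.3, 0.336 and 3.08 CPM in BACHD+Con mice 1 to 4. In Con+Foxp2 mice it was at 1.61, 2.95, 34.8 and 27.8 CPM, against 71.4, 1.93, 26.4 and 37.2 CPM in Con+Con mice. Between the lowest of the 7 high libraries, 26.4 CPM, and the highest of the 9 others, 3.08 CPM, no library had an intermediate Slc4a5 level.

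Clic6, a member of the chloride intracellular channel family, differed from the other genes in its level where Ttr was low. It was at 9.14, 12.8, 78.1 and 13.1 CPM in BACHD+Foxp2 mice 1 to 4 and at 10.997, 143, 14.4 and 14.6 CPM in BACHD+Con mice 1 to 4. Con+Foxp2 mice 1 to 4 had 12.9, 17.7, 36.8 and 42.3 CPM, against 84.7, 16.1, 35.7 and 51.0 CPM in Con+Con mice 1 to 4. The same 7 libraries were highest, but every one of the 16 libraries had at least 25 Clic6 reads, and the 9 lower libraries lay close together, between 9.14 and 17.7 CPM. Kcne2, an accessory subunit of potassium channels that lies 187606 bases from Clic6 on chromosome 16, was near the limit of detection in those libraries. Kcne2 was at 0, 0, 13.4 and 0.638 CPM in BACHD+Foxp2 mice 1 to 4 and at 0, 34.0, 0 and 0.385 CPM in BACHD+Con mice 1 to 4. Its level in Con+Foxp2 mice was 2.58, 2.62, 12.9 and 8.19 CPM, against 32.5, 0, 8.68 and 9.67 CPM in Con+Con mice. Of the 9 libraries with low Ttr, 5 had no Kcne2 read, and the 2 with the most, Con+Foxp2 mice 1 and 2, had 8 reads each.

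Among the receptors, Kl, klotho, the co-receptor of the hormone FGF23, had the highest CPM after Ttr in the high libraries. Its values were 4.02, 12.8, 143 and 16.9 CPM in BACHD+Foxp2 mice 1 to 4, and 7.90, 287, 5.71 and 9.64 CPM in BACHD+Con mice 1 to 4. They were 7.73, 12.8, 93.1 and 66.6 CPM in Con+Foxp2 mice 1 to 4, against 194, 11.6, 50.8 and 90.0 CPM in Con+Con mice 1 to 4. Folr1, folate receptor alpha, which carries folate into the cerebrospinal fluid, was at 0, 3.93, 33.4 and 0.957 CPM in BACHD+Foxp2 mice and at 1.03, 55.8, 4.03 and 1.54 CPM in BACHD+Con mice. It was at 2.90, 0.327, 12.9 and 22.9 CPM in Con+Foxp2 mice, against 47.5, 2.57, 21.2 and 17.5 CPM in Con+Con mice. Folr1 overlaps Anapc15 on the opposite strand (348 reads over the study, against 715 for Folr1). Whether the counting used strand is not stated, so how reads from the shared stretch were counted is not known. Prlr, the prolactin receptor, was at 1.83, 0.327, 64.0 and 6.70 CPM in BACHD+Foxp2 mice and at 2.41, 108, 3.69 and 9.64 CPM in BACHD+Con mice. Con+Foxp2 mice 1 to 4 had 12.6, 9.49, 32.5 and 25.1 CPM of Prlr, against 87.0, 2.57, 28.3 and 29.0 CPM in Con+Con mice. Con+Foxp2 mouse 1 had the highest Prlr level of the 9 libraries with low Ttr.

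Sostdc1 encodes a secreted antagonist of BMP and Wnt signals. It was at 1.46, 0.982, 18.2 and 0.319 CPM in BACHD+Foxp2 mice 1 to 4 and at 0.344, 14.5, 0 and 1.93 CPM in BACHD+Con mice 1 to 4. In Con+Foxp2 mice 1 to 4 it was at 1.29, 4.58, 21.9 and 5.73 CPM, against 20.9, 0.643, 3.54 and 7.44 CPM in Con+Con mice 1 to 4. Sostdc1 was the exception to the shared order, because Con+Foxp2 mouse 2 (14 reads), a library with low Ttr, stood above Con+Con mouse 3 (11 reads), a library with high Ttr. Otx2, the homeobox transcription factor that specifies this epithelium, was at 1.10, 2.29, 26.8 and 0.319 CPM in BACHD+Foxp2 mice and at 0.344, 23.5, 0 and 2.31 CPM in BACHD+Con mice. In Con+Foxp2 mice it was at 0.644, 2.62, 11.9 and 5.73 CPM, against 21.8, 4.18, 13.8 and 15.996 CPM in Con+Con mice. Its antisense partner Otx2os1 had 13 reads over the study, against 407 for Otx2.

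Per kilobase of exon, over the union of GENCODE M21 exons, Ttr was the most abundant, with 1856 ± 2489 CPM per kb (SD, n = 16 libraries), and it was above Clic6 in 16 of 16 libraries. Clic6 came next with 9.47 ± 9.43 CPM per kb, ahead of Kl (6.79 ± 8.80), Folr1 (6.22 ± 7.72), Kcne2 (4.44 ± 6.24) and Slc4a5 (3.75 ± 4.60). Sostdc1 (3.64 ± 4.39), Aqp1 (2.23 ± 2.79), Otx2 (1.98 ± 2.20) and Prlr (1.72 ± 2.12) had the lowest means. These means are over libraries with high and low Ttr, and the order was not the same in every library. Over the 7 high libraries the median of Sostdc1, 8.16 CPM per kb, was above those of Kcne2, 7.32, and Slc4a5, 6.41, and Slc4a5 exceeded Sostdc1 in 8 of 16 libraries. From Kl downward, neighbours in this order lay well within each other's spread. Clic6 exceeded Kl in 15 of 16 libraries, although the means of this pair overlap too.

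The 10 genes were among the most variable in the data. Their biological coefficient of variation within groups, as edgeR estimates it, ran from 0.669 for Clic6 to 1.36 for Kcne2, against a median of 0.237 over the 13563 tested genes. In 9 of the 10 genes, Ttr itself among them by construction, the 7 highest libraries were the 7 with high Ttr. Of the 13563 tested genes, 46 (0.339%) had this pattern, while 2 had these libraries as their 7 lowest. The 46 include these 9 genes, which were chosen with earlier results of these data known, so the count is a description. Aqp1, Slc4a5 and Kcne2 passed the filter on low counts only with the 7 high libraries present. Since the libraries fall into separate ranges of Ttr, relations to Ttr were examined within each range. Among the 7 high libraries, log2 CPM followed that of Ttr for Prlr (Pearson r = 0.979, Spearman rho = 0.964), Clic6 (r = 0.966, rho = 0.893), Slc4a5 (r = 0.964, rho = 0.964), Kl (r = 0.953, rho = 0.929), Kcne2 (r = 0.949, rho = 0.964) and Folr1 (r = 0.912, rho = 0.679). For these 6 genes the raw p of r was 0.000595 to 0.00456 and the adjusted p 0.00536 to 0.0137 by exact permutation test, two-sided, with adjustment over the 18 relations computed. By rho the same exact test gave a raw p of 0.00278 to 0.110 and an adjusted p of 0.0167 to 0.197, and Folr1 did not pass. Otx2 (r = 0.735, raw p 0.0556, adjusted p 0.125), Sostdc1 (r = 0.548, raw p 0.210, adjusted p 0.290) and Aqp1 (r = 0.450, raw p 0.312, adjusted p 0.374) did not pass in the exact permutation test. Their rho was 0.857 (adjusted p 0.0612) for Otx2, 0.50 (adjusted p 0.40) for Sostdc1 and 0.429 (adjusted p 0.455) for Aqp1 in the same exact test. Without the 2 libraries farthest from the median of Ttr, 5 libraries remain, too few to read a p from; r over them was 0.9645 for Prlr, 0.928 for Clic6, 0.937 for Slc4a5, 0.833 for Kl, 0.685 for Kcne2 and 0.658 for Folr1. Among the 9 low libraries 0 of 9 relations passed by r in the exact permutation test, and 1, Kcne2, passed by rho (0.822, raw p 0.0112, adjusted p 0.0369, r = 0.600). That rho rests on few reads, since Kcne2 had 19 reads over these 9 libraries and 5 of them were tied at 0.

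Set against Ttr within a library, the other genes did not all behave alike. Slc4a5 stood at 7.74 to 12.2 reads per 1000 Ttr reads in the 7 high libraries, and Aqp1 and Kcne2 at 1.21 to 6.41 and 2.85 to 4.56 reads. In the 9 low libraries the same genes ranged more widely around those values, from 2.81 to 30.7 reads for Slc4a5, 0 to 10.2 for Aqp1 and 0 to 13.6 for Kcne2. Clic6, in contrast, had 11.9 to 16.6 reads per 1000 Ttr reads in the 7 high libraries and 34.8 to 122.6 in the 9 others, with no overlap. For Kl the ranges were 18.1 to 32.8 reads in the high and 27.1 to 88.1 reads in the low libraries, and for Prlr 9.19 to 13.6 and 1.82 to 66.1 reads. Otx2 (2.22 to 5.71 and 0 to 22.3), Sostdc1 (1.26 to 7.69 and 0 to 14.0) and Folr1 (4.55 to 8.86 and 0 to 33.7) overlapped between the ranges. With reads pooled over the 7 high and the 9 low libraries, Otx2 stood at 3.53 and 7.30 per 1000 Ttr reads. Sostdc1 stood at 2.76 and 6.06, Folr1 at 6.39 and 9.26, Prlr at 11.2 and 26.0, and Kl at 27.6 and 47.6. Clic6 stood at 14.1 and 64.5, against 9.88 and 9.62 for Slc4a5, 2.69 and 2.67 for Aqp1 and 3.61 and 3.38 for Kcne2. Ttr is the denominator here and also orders the libraries, so these ranges and pooled values are given with no test.

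**Figure D2:**
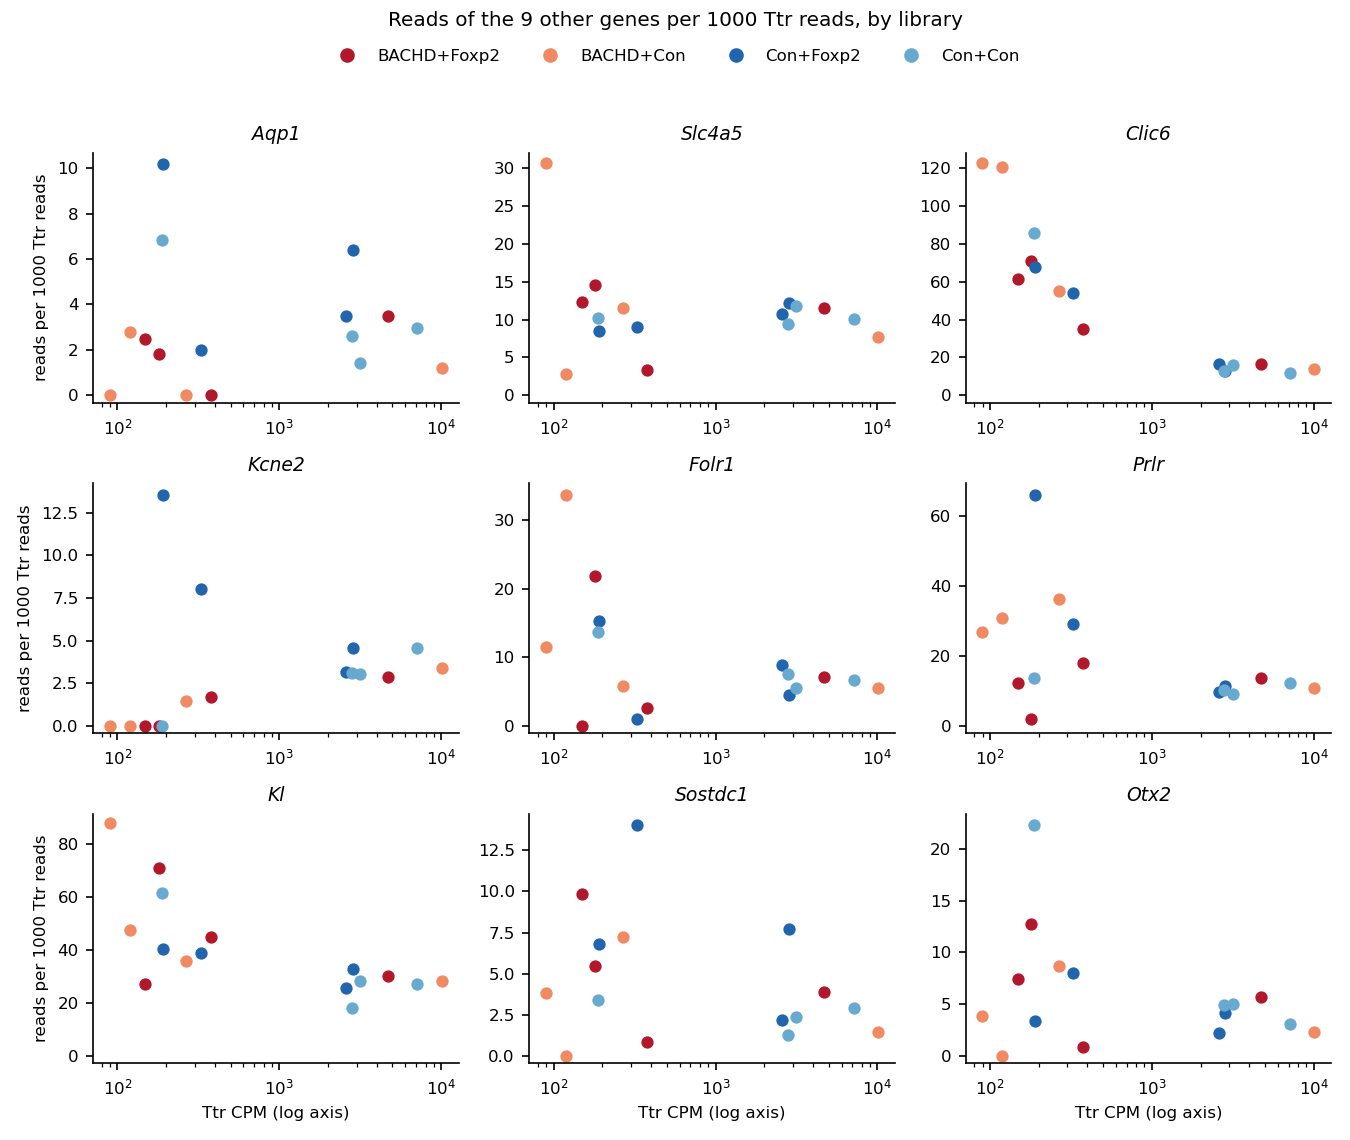
Reads of each of the 9 other genes per 1000 Ttr reads (vertical axis) against Ttr CPM (horizontal log axis), with 1 point per library, coloured by group; the vertical scale differs between panels. Clic6 stands at 34.8 to 122.6 reads in the 9 libraries with low Ttr and at 11.9 to 16.6 in the 7 others, while Slc4a5 scatters around the same level on both sides.

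The tested genes outside the 10 whose CPM was most like that of Ttr over the 16 libraries, by Spearman rho, were Trpm3 (0.959), Myo7a (0.953), Igf2 (0.944), Tmem72 (0.926), Col4a4 (0.919), Col8a2 (0.912), F5 (0.909), Fxyd1 (0.906), Krt18 (0.906) and Prr32 (0.902). These values describe libraries that fall into 2 ranges of Ttr, and no p is given for them. After group means were removed from log2 CPM, the 10 most alike were Igf2 (0.994), Frem1 (0.959), Tmem72 (0.959), Rbm47 (0.956), Trpm3 (0.956), Antxr1 (0.944), Abca4 (0.941), Cgnl1 (0.938), Cldn2 (0.938) and Prr32 (0.933), and 4 genes were in both sets. Pearson r of log2 CPM was 0.868 to 0.979 for the first set and 0.927 to 0.991 for the second. Trpm3, a cation channel whose gene hosts the microRNA miR-204, stood at 207 to 586 CPM in the 7 high libraries and at 81.8 to 164.9 CPM in the 9 others. Tmem72, a membrane protein gene, stood at 27.6 to 114.6 CPM in the 7 and at 0.322 to 9.25 CPM in the 9. Of 30 tested genes on a list of further choroid plexus genes, 19 were among the 100 most like Ttr, out of 13563 tested genes. The list was chosen with earlier results of these data known, so this count is not independent support.

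That list of 35 further choroid plexus genes, all present in the tables and 30 of them tested, gave the same picture in a weaker form. For 13 of the 30 tested genes the 7 highest libraries were those with high Ttr, against 46 of all 13563 tested genes (0.339%). This too is a description, given how the list was chosen. Enpp2, autotaxin, a secreted lysophospholipase and the gene of the list with the highest level per kb, was at 387, 192, 1897 and 373 CPM in BACHD+Foxp2 mice 1 to 4 and at 297, 3228, 266 and 328 CPM in BACHD+Con mice 1 to 4. It was at 259.5, 369.8, 1318 and 937 CPM in Con+Foxp2 mice, against 2713, 357, 933 and 1248 CPM in Con+Con mice. Igf2, an imprinted growth factor of choroid plexus and meninges, ranged over the 7 high libraries from 178 to 602 CPM and over the 9 others from 28.3 to 71.4 CPM. Ace, angiotensin converting enzyme, ranged from 64.4 to 214 CPM over the 7 and from 16.5 to 51.2 CPM over the 9. Kcnj13, a potassium channel of this epithelium, ranged from 12.01 to 65.7 CPM over the 7 and from 1.31 to 11.2 CPM over the 9. The ranges overlapped for Igfbp2, a binding protein of insulin-like growth factors (27.0 to 122.9 CPM over the 7 and 2.75 to 28.7 over the 9), and for 1500015O10Rik (3.54 to 37.5 and 0.655 to 5.80 CPM). The summed level of the list was 1617 to 5429 CPM in the 7 and 481 to 706 CPM in the 9 libraries.

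Marker genes of the other cell types near the striatum were set beside Ttr in the same libraries. The 18 genes of ependymal and ciliated cells, which line the ventricle wall (Ccdc39, Cfap44 and Dnah11 at the highest level), were summed to 85.8 to 178.6 CPM in BACHD+Foxp2, 67.4 to 308 in BACHD+Con, 141 to 202 in Con+Foxp2 and 96.7 to 273 in Con+Con libraries. The highest ependymal sums were in BACHD+Con mouse 2 and Con+Con mouse 1, the 2 libraries with the most Ttr, but the ranges over the 7 high and the 9 low libraries, 96.7 to 308 and 67.4 to 202 CPM, overlapped. Among the 7 high libraries the ependymal sum followed Ttr with r = 0.907 (raw p 0.00635, adjusted p 0.0762, exact permutation test over 24 relations of lists to Ttr) and rho = 0.750 (adjusted p 0.364). Of the 24, only the sum of further choroid plexus genes in those 7 libraries passed by r (0.978, raw p 0.00119, adjusted p 0.0286, exact permutation test), though not by rho (0.929, adjusted p 0.162). Without the 2 libraries farthest from the median of Ttr, r was 0.917 for the further choroid plexus genes and 0.470 for the ependymal sum. All 18 ependymal markers had reads, and their part in the results was not tested. The sums of meningeal and fibroblast genes (Nov, Slc13a3 and Bgn at the highest level), 83.0 to 198 CPM in the 7 and 64.8 to 195 CPM in the 9 libraries, did not separate. Subventricular neuroblast and dividing cell genes (Sp9, Sox11 and Dcx) were at 130.4 to 222 and 133.5 to 249.7 CPM. Striatal projection neuron genes (Pde10a, Rgs9 and Penk) were at 5102 to 9935 and 5472 to 10180 CPM, and septal and thalamic genes (Zic1, Prkcd and Tcf7l2) at 142.5 to 582 and 108 to 720.2 CPM.

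The remaining lists covered neighbouring and non-neuronal cells. Cortical excitatory neuron genes (Slc17a7, Rorb and Tbr1) were at 228 to 1474 CPM in the 7 high and 282 to 1206 CPM in the 9 low libraries. Astrocyte genes (Slc1a2, Slc1a3 and Slc4a4) were at 7244 to 8837 and 7092 to 9211 CPM, and oligodendrocyte genes at 5857 to 9530 and 2981 to 7162 CPM. Endothelial genes (Flt1, Slc2a1 and Slco1a4) were at 288 to 369 and 294 to 401 CPM, and microglial genes at 245 to 344 and 240.5 to 397 CPM. Alas2 was at 16.1 to 31.3 and 13.9 to 22.6 CPM. Each of these ranges overlapped, unlike that of the further choroid plexus genes.

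By group, the summed level of the further choroid plexus genes averaged 1251 ± 1280 CPM in BACHD+Foxp2, 1762 ± 2445 in BACHD+Con, 1263 ± 812 in Con+Foxp2 and 2202 ± 1601 in Con+Con mice (SD, n = 4 each). The ependymal sum averaged 136.9 ± 40.5 CPM in BACHD+Foxp2, 150.5 ± 107 in BACHD+Con, 161 ± 27.8 in Con+Foxp2 and 167 ± 76.2 in Con+Con mice. For both lists the ranges of all 4 groups overlapped. Meningeal and fibroblast genes averaged 116.3 ± 52.8 CPM in BACHD+Foxp2, 89.1 ± 18.4 in BACHD+Con, 127 ± 49.0 in Con+Foxp2 and 116.0 ± 25.7 in Con+Con mice. Subventricular genes averaged 165.1 ± 38.7, 191.1 ± 19.0, 199 ± 40.7 and 200.6 ± 29.1 CPM in these groups, and striatal projection neuron genes 6298 ± 922, 7560 ± 1572, 5814 ± 616 and 7787 ± 2636 CPM. Cortical genes averaged 908 ± 278 CPM in BACHD+Foxp2, 640.0 ± 469 in BACHD+Con, 808 ± 296 in Con+Foxp2 and 694 ± 533 in Con+Con mice, and septal and thalamic genes 172 ± 52.0, 199.8 ± 82.3, 358 ± 275 and 340.0 ± 177 CPM. The group ranges of the septal and thalamic sum overlapped. Astrocyte genes averaged 8067 ± 520, 7327 ± 196, 8706 ± 300 and 8241 ± 742 CPM in BACHD+Foxp2, BACHD+Con, Con+Foxp2 and Con+Con mice. Endothelial genes averaged 350.5 ± 43.2, 322 ± 21.7, 326 ± 34.8 and 341 ± 31.6 CPM in these groups, and oligodendrocyte genes 6384 ± 2335, 5964 ± 892, 5833 ± 1109 and 7508 ± 1502 CPM. The microglial sum was 349 ± 28.8 CPM in BACHD+Foxp2, 263 ± 22.9 in BACHD+Con, 352 ± 37.4 in Con+Foxp2 and 295 ± 24.7 in Con+Con mice. It did not overlap between BACHD+Con (240.5 to 285 CPM) and either BACHD+Foxp2 (321 to 386 CPM) or Con+Foxp2 (307 to 397 CPM). The astrocyte sum also did not overlap between BACHD+Con (7092 to 7520 CPM) and Con+Foxp2 (8446 to 9068 CPM). These cases were seen among many lists and pairs of groups and were not tested. Alas2 was at 20.6 ± 7.55, 17.3 ± 1.57, 19.4 ± 2.65 and 20.4 ± 2.66 CPM in BACHD+Foxp2, BACHD+Con, Con+Foxp2 and Con+Con mice. The part of these cells in the comparisons was not tested.

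**Figure D3:**
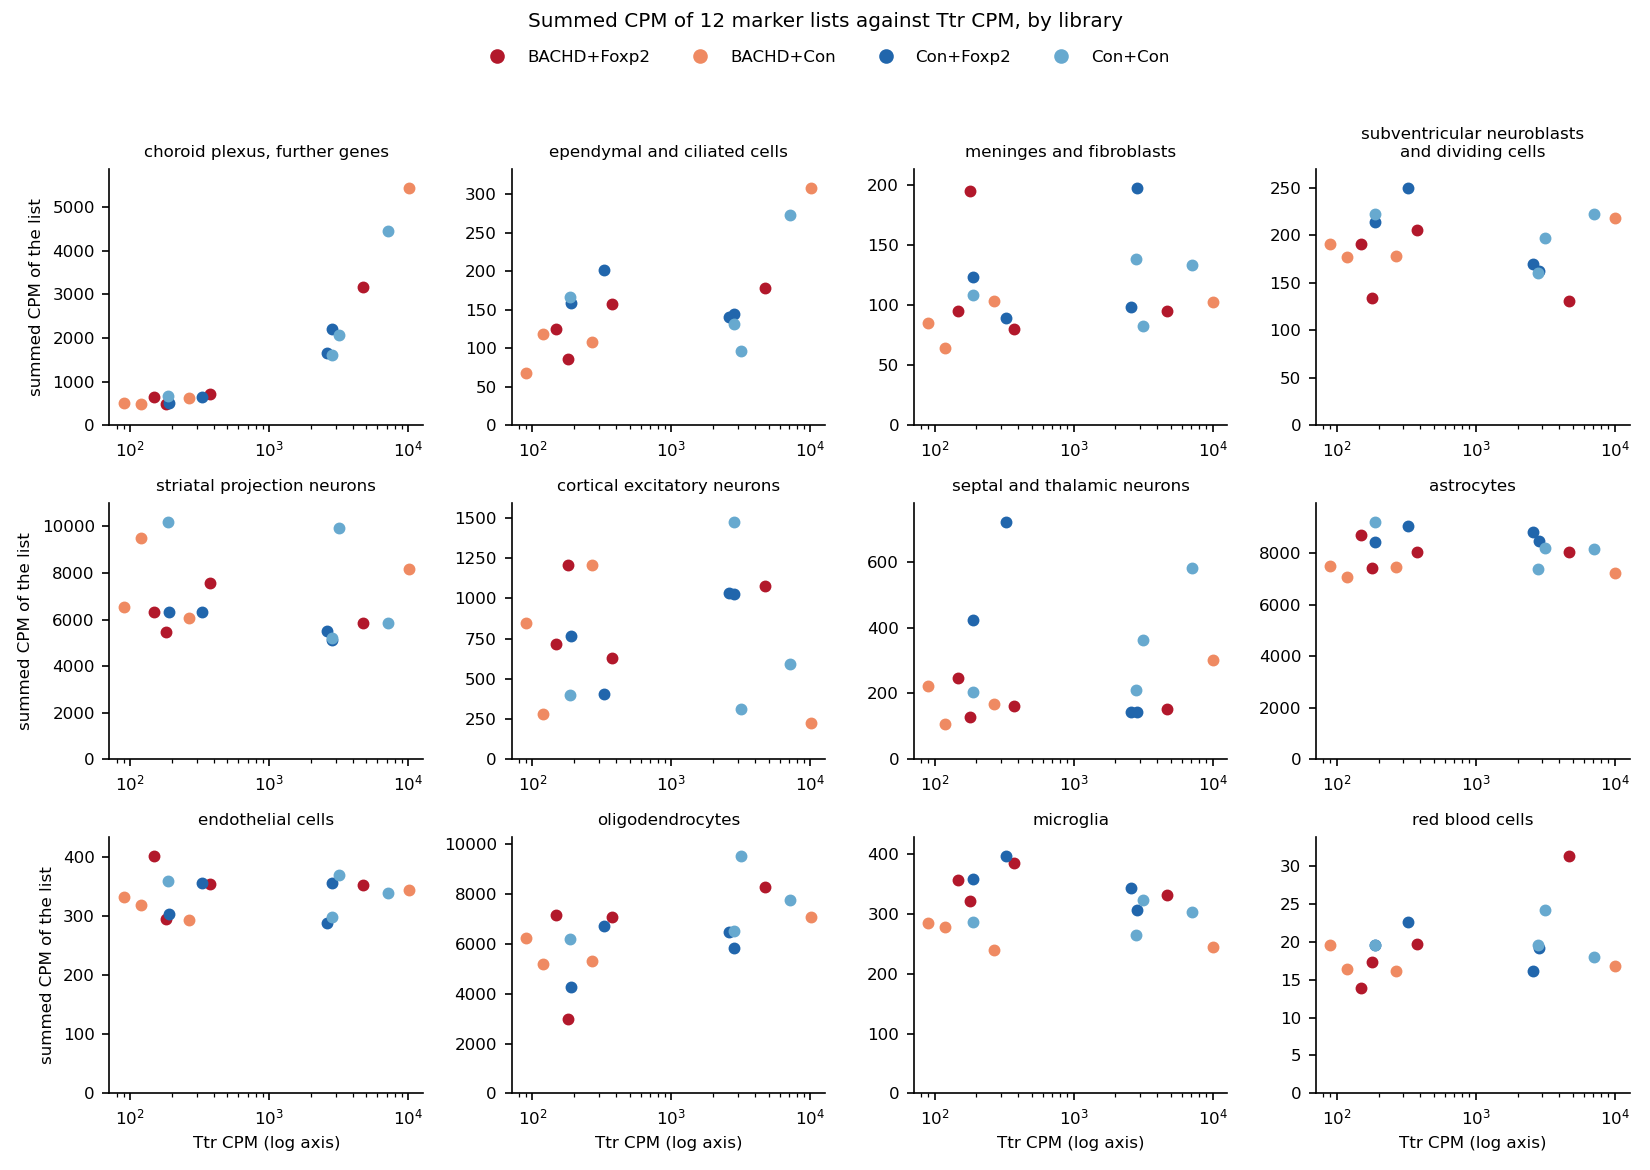
Summed CPM of the 12 other marker lists (vertical axis, from 0) against Ttr CPM (horizontal log axis), with 1 point per library, coloured by group. The sum of further choroid plexus genes is 1617 to 5429 CPM in the 7 libraries with high Ttr and 481 to 706 CPM in the 9 others; the other lists overlap between these libraries.

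The first question of the design is what the Foxp2 virus changed in mice of the control genotype. Ttr averaged 1487 ± 1423 CPM in Con+Foxp2 and 3318 ± 2859 CPM in Con+Con mice (SD, n = 4 each). Kl averaged 45.1 ± 41.7 CPM in Con+Foxp2 and 86.5 ± 78.2 CPM in Con+Con mice, and Otx2 5.23 ± 4.93 CPM in Con+Foxp2 and 14.0 ± 7.34 CPM in Con+Con mice. The log2 fold change of Ttr was -1.16 (SE 1.23, 95% confidence interval -3.71 to 1.39, adjusted p 0.927, edgeR's quasi-likelihood test). Over the 10 genes it ran from -1.41 for Otx2 to 0.03 for Sostdc1, with 1 of 10 above 0 and a median of -0.95, against 6699 of 13563 above 0 and a median of -0.0037 over all tested genes. By edgeR 0 of the 10 were called at an adjusted p under 0.05, against 0.229% of all tested genes. At an unadjusted p under 0.05 there were also 0 of 10, against 7.04% of all, and DESeq2 called 0 of 10, against 0.641%. The lowest adjusted p was 0.871, for Otx2, and Clic6 had the narrowest interval, -2.23 to 0.69. Over the 10 genes the lower bounds ran from -3.71 to -2.17 and the upper bounds from 0.69 to 2.22.

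In BACHD mice the same question gave Ttr at 1352 ± 2236 CPM in BACHD+Foxp2 and 2647 ± 4978 CPM in BACHD+Con, and Clic6 at 28.3 ± 33.3 CPM in BACHD+Foxp2 and 45.8 ± 64.9 CPM in BACHD+Con (SD, n = 4 each). In these groups the SD exceeded the mean for each of the 10 genes. The log2 fold change of Ttr was -0.97 (SE 1.23, interval -3.51 to 1.57, adjusted p 0.914, edgeR). Over the 10 genes it ran from -1.30 for Kcne2 to 0.42 for Aqp1, with 3 of 10 above 0 and a median of -0.71, against 6806 of 13563 above 0 and a median of 0.00082 over all. By edgeR 0 of 10 were called, against 0.243% of all tested genes, 0 had an unadjusted p under 0.05, against 7.73%, and 0 were called by DESeq2, against 0.487%. Each of these groups held 1 library with high Ttr.

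For the effect of the genotype under the control virus, Ttr averaged 2647 ± 4978 CPM in BACHD+Con and 3318 ± 2859 CPM in Con+Con, with a log2 fold change of -0.33 (SE 1.22, interval -2.85 to 2.19, adjusted p 0.9999, edgeR). The 10 genes ran from -1.42 for Aqp1 to -0.03 for Clic6, with 0 of 10 above 0 and a median of -0.53. Over all tested genes 6797 of 13563 were above 0, with a median of 0.00054. Under the Foxp2 virus, Ttr averaged 1352 ± 2236 CPM in BACHD+Foxp2 and 1487 ± 1423 CPM in Con+Foxp2, with a log2 fold change of -0.14 (SE 1.22, interval -2.66 to 2.39, adjusted p 0.998). The genes ran from -0.90 for Kcne2 to 0.54 for Otx2, with 2 of 10 above 0 and a median of -0.14. Over all tested genes 6960 of 13563 were above 0, with a median of 0.0091. For BACHD+Con over Con+Con, 0 of 10 were called by edgeR, against 0.0147% of all tested genes, 0 had an unadjusted p under 0.05, against 3.44%, and 0 were called by DESeq2, against 0.0221%. For BACHD+Foxp2 over Con+Foxp2 these counts were also 0 of 10, against 0.059% by edgeR, 4.18% at an unadjusted p under 0.05 and 0.111% by DESeq2. The comparisons share groups in pairs, so their directions are not independent of each other.

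The interaction, the virus effect in BACHD mice over that in control mice, had a log2 value of 0.19 for Ttr (SE 1.72, interval -3.38 to 3.75, adjusted p 0.99995, edgeR). Over the 10 genes it ran from -0.35 for Kcne2 to 1.62 for Otx2, with 9 of 10 above 0 and a median of 0.23, against 0.010 over all tested genes. By edgeR 0 of 10 were called and 0 of 13563 genes in all (0%), with 516 genes (3.8%) at an unadjusted p under 0.05. DESeq2 called 4 genes (0.0295%), and 0 of the 10 were in either of these counts. In all 5 comparisons the 95% interval of each of the 10 genes included 0. Among the 30 tested genes of the further choroid plexus list, 0 were called by edgeR in any of the 5 comparisons, against 0.413% of all tested genes. In the order in which the comparisons are given above, 1, 5, 4, 13 and 20 of the 30 were above 0. Over all 13563 tested genes these counts were 6699, 6806, 6797, 6960 and 6963.

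**Figure D4:**
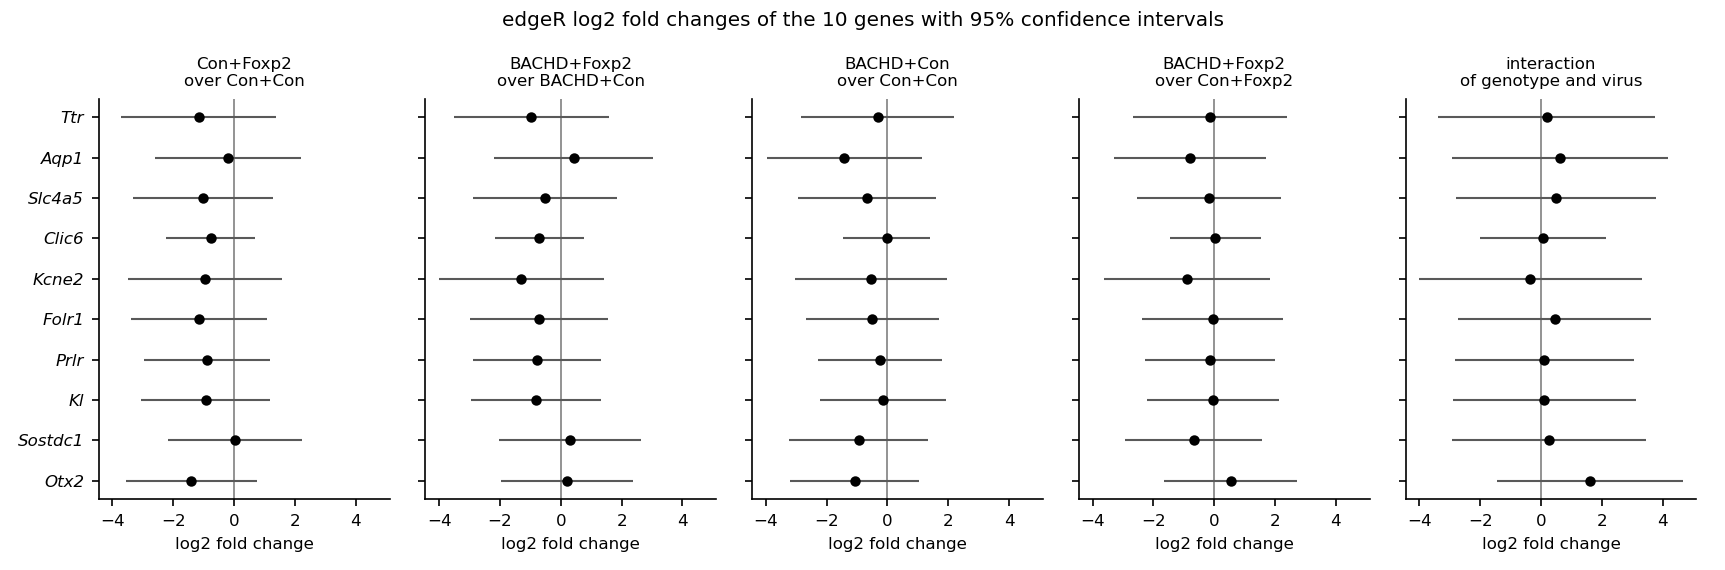
Log2 fold change of each of the 10 genes in the 5 comparisons (points), with its 95% confidence interval (lines) from edgeR's fit of all 16 libraries; values above 0 are higher in the group named first. All 50 intervals include 0, and those of Clic6 are the narrowest.

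The direction of most of these differences depended on single mice. Without BACHD+Con mouse 2, the library with the most Ttr, the median log2 fold change of the 10 genes for BACHD+Foxp2 over BACHD+Con was 2.82, with 10 of 10 above 0, where it was -0.71 with all 16 mice. Without BACHD+Foxp2 mouse 3 the same median was -3.27, with 0 of 10 above 0. For BACHD+Con over Con+Con the median was -3.73 without BACHD+Con mouse 2, and for BACHD+Foxp2 over Con+Foxp2 it was -2.69 without BACHD+Foxp2 mouse 3. The interaction had a median of 3.66 without the BACHD+Con mouse and of -2.26 without the BACHD+Foxp2 mouse. Without Con+Con mouse 1, the BACHD+Con over Con+Con median was 0.27 and that of Con+Foxp2 over Con+Con -0.23. For Con+Foxp2 over Con+Con the median was below 0 in all 16 fits that leave a mouse out. The 8 BACHD mice do not enter that comparison, and leaving 1 of them out could hardly move it (median -0.951 to -0.937). Only the other fits bear on its direction, and without Con+Con mouse 1 there were 4 of 10 genes above 0. Of the 50 combinations of gene and comparison, 40 changed sign in at least 1 of those 16 fits.

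With BACHD+Con mouse 2 left out, many of the 10 genes had an unadjusted p under 0.05 in edgeR's test in the comparisons that mouse enters, and 0 of 10 passed the adjusted threshold. For BACHD+Con over Con+Con, 10 of 10 were under an unadjusted 0.05, against 4.82% of all tested genes, and the lowest adjusted p was 0.814. In the interaction 8 of 10 were under it, against 4.41% of all, and for BACHD+Foxp2 over BACHD+Con 6 of 10, against 7.27%. For Con+Foxp2 over Con+Con and BACHD+Foxp2 over Con+Foxp2, which that mouse does not enter, 0 of 10 were under it, against 7.16% and 4.32% of all. With BACHD+Foxp2 mouse 3 left out, 8 of 10 were under it for BACHD+Foxp2 over BACHD+Con, against 7.63%, with a lowest adjusted p of 0.412. In the same fit 5 of 10 were under it for BACHD+Foxp2 over Con+Foxp2, against 4.67%. There were 0 of 10 in the interaction, against 3.90% of all tested genes. For Con+Foxp2 over Con+Con and BACHD+Con over Con+Con there were also 0 of 10, against 7.16% and 3.59%. Since the 10 genes vary together, these counts are not 10 separate observations. Both mice were singled out because they stood above the rest of their group in these same genes. Low p-values can follow from that choice, so the counts are no support for a difference between groups.

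**Figure D5:**
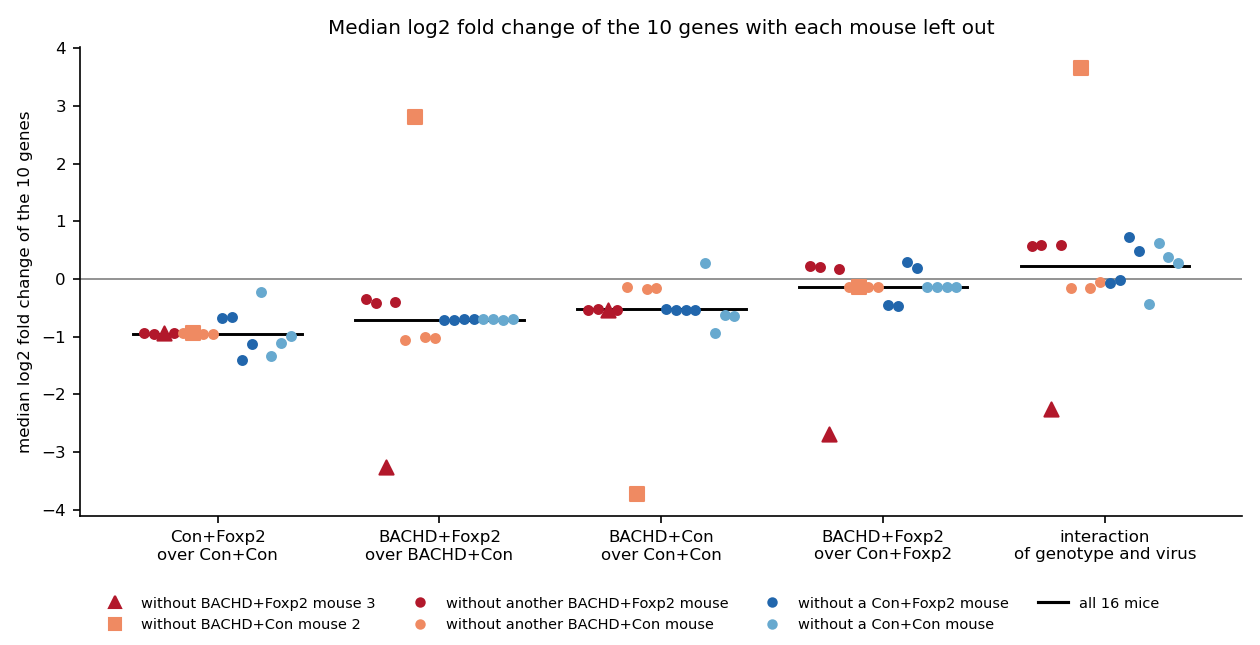
Median log2 fold change of the 10 genes (vertical axis) in each comparison, with all 16 mice (black line) and with each mouse left out in turn (points, coloured by the group of the mouse left out). The triangle, without BACHD+Foxp2 mouse 3, and the square, without BACHD+Con mouse 2, lie at -3.27 and 2.82 for BACHD+Foxp2 over BACHD+Con, on either side of the other points.

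In the authors' deposited table for BACHD+Foxp2 over BACHD+Con, all 10 genes have a log2 fold change but no p-value, as is so for 179 of the 18864 genes with reads (0.949%). The log2 fold changes of the 10 genes there run from -0.08 to 0.02, in the authors' deposited table. For Ttr the deposited value is -0.0486 (SE 0.0875), whereas DESeq2 run here on the 8 BACHD libraries gave -0.961. The deposited values and SEs are thus on a smaller scale than those given above and cannot be compared with them in size. They do not show that the changes were small or closely estimated. In the authors' deposited tables for BACHD+Con over Con+Con and Con+Foxp2 over Con+Con the 10 genes have p-values. Of the 10, 0 pass in either of the authors' deposited tables, against 0.0158% of all genes with a p-value for BACHD+Con over Con+Con and 0.574% for Con+Foxp2 over Con+Con. The lowest there is that of Otx2 for Con+Foxp2 over Con+Con, with a p of 0.0236 and an adjusted p of 0.519 in the authors' deposited table. When DESeq2 was run here on the 8 BACHD libraries, all 10 genes were among the 38 of 18864 genes left without a p by its filter on outlying counts. The largest Cook's distance, the measure that filter uses, was in BACHD+Con mouse 2 for 7 of the genes and in BACHD+Foxp2 mouse 3 for Aqp1, Otx2 and Sostdc1. With the filter off, all 10 had a p and 0 of 10 were called, against 0.249% of all genes.

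The genes that did pass in the comparisons were set beside Ttr. Over the 5 comparisons edgeR called 56 genes in all, which is 0.413% of those tested, and 0 of the 100 tested genes most like Ttr were among them, a count near that share. For the called genes, Spearman rho with Ttr over the 16 libraries ran from -0.41 for Htt to 0.54 for Frmpd1, with a median of -0.03, against -0.01 over all tested genes.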

How the data were processed

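RNA from the striatum of 16 mice, 4 in each of 4 groups, was extracted with a lipid tissue kit and amplified with a SMARTer kit, per the labels' protocols. The authors aligned reads to mm10 with STAR 2.4.0 and deposited HTSeq counts per gene, per the submitters' processing notes; 75.3% to 77.5% of the reads each table lists fall in its 5 summary lines and were left out. For 3 of the comparisons the authors deposited DESeq2 tables with log2 fold changes, p-values, a test statistic (a score) and a mean normalized signal over the libraries, per the file headers; the direction of each was read from the sign of Foxp2 or Htt.

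Groups and replicate numbers come from the labels, where nothing states a batch. Genes passing edgeR's filterByExpr (13563 of 24421) were fitted over all 16 libraries with 4 group means (edgeR 4.0.16, quasi-likelihood, trimmed mean of M values, 12 residual degrees of freedom), with Benjamini-Hochberg adjustment over all tested genes and a threshold of 0.05. All 10 genes passed the filter; without the 7 libraries with high Ttr, Aqp1, Slc4a5 and Kcne2 did not pass it and the other 7 genes did. CPM used the same library sizes, and relations to Ttr used log2(CPM + 0.5). Alternatives were DESeq2 1.42.0, no filter on low counts, only the groups compared, a replicate block and each mouse left out. The main fit did not treat replicate numbers as a pairing. Of 24 pairs of libraries with the same number, 2 had correlated deviations over 0.1. Pairs with different numbers were not compared, so this check cannot exclude a pairing. Alternatives based on Ttr (without the 2 or the 7 libraries with most Ttr, Ttr as a covariate) and the DESeq2 run on the 8 BACHD libraries were chosen after seeing the data. The 10 genes and all marker lists were chosen with earlier results of these data known. Of further choroid plexus genes, the 6 with the highest CPM per kb are named; of genes like Ttr, the 10 with the highest rho; of other lists, the 3 most abundant genes, which for the oligodendrocyte and microglial lists are not reported here. Scripts were tested on simulated data. Nothing in the labels says that the mice of a group were handled apart, so p-values measure the spread between these samples.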

Additional observations from a re-analysis of the deposited data

Results flagged for a closer look

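In 34 of 112 groups of 4 libraries examined, 1 library lay far from the other 3, the gap being most of the range of the group. Chance gives about 1 in 20 for normally distributed values, which was not tested for these CPM. Among the 10 choroid plexus genes 20 of 40 groups were flagged, and these were all the BACHD+Foxp2 and BACHD+Con groups. Those groups each held 1 library with high Ttr, against 2 in Con+Foxp2 and 3 in Con+Con. The count therefore restates the division by Ttr and is not an excess over chance. The genes vary together, so the flags are not separate observations.

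BACHD+Foxp2 mouse 3 stood apart with Ttr at 4702, Aqp1 at 16.5, Slc4a5 at 54.0, Otx2 at 26.8, Kl at 143, Folr1 at 33.4, Clic6 at 78.1, Kcne2 at 13.4, Sostdc1 at 18.2 and Prlr at 64.0 CPM. Of the further choroid plexus genes it stood apart with Enpp2 at 1897, Igf2 at 310.0, Igfbp2 at 73.3, Ace at 170.0 and 1500015O10Rik at 11.4 CPM, and with a list sum of 3166 CPM.

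BACHD+Con mouse 2 stood apart with Ttr at 10114, Aqp1 at 12.2, Slc4a5 at 78.3, Otx2 at 23.5, Kl at 287, Folr1 at 55.8, Clic6 at 143, Kcne2 at 34.0, Sostdc1 at 14.5 and Prlr at 108 CPM. Its further genes that stood apart were Enpp2 at 3228, Igf2 at 602, Igfbp2 at 122.9, Ace at 214, Kcnj13 at 65.7 and 1500015O10Rik at 34.0 CPM, with a list sum of 5429 CPM.

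The only other such library was BACHD+Foxp2 mouse 2, with meningeal and fibroblast genes summed to 195 CPM.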

How the results depend on the processing

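Of the 10 choroid plexus genes, 0 were called in any comparison under the alternatives run, counting the other 9 where Ttr was a covariate. The number of genes called over the whole table moved more. In the order Con+Foxp2 over Con+Con, BACHD+Foxp2 over BACHD+Con, BACHD+Con over Con+Con, BACHD+Foxp2 over Con+Foxp2 and the interaction, it was 31, 33, 2, 8 and 0. Without a filter on low counts it was 75, 53, 2, 10 and 3, and with DESeq2 87, 66, 3, 15 and 4. With the replicate number as a block it was 21, 22, 1, 7 and 0. Fitting only the groups compared gave 19 for BACHD+Foxp2 over BACHD+Con. Without the 2 libraries highest in Ttr, BACHD+Foxp2 over BACHD+Con gave 17 and BACHD+Con over Con+Con 1, and without the 7 libraries with high Ttr the first 3 comparisons gave 6, 12 and 1. That last fit has 3, 3, 2 and 1 mice in BACHD+Foxp2, BACHD+Con, Con+Foxp2 and Con+Con, left by their Ttr level, and assumes that the lone Con+Con mouse varies like the others; it says nothing about stability. Leaving out single mice gave 10 to 46, 9 to 32, 1 to 2, 4 to 10 and 0 to 1 calls.

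With single mice left out, the log2 fold change of Ttr ran from -1.68 to -0.46, -3.47 to 3.09, -4.39 to 0.36, -2.66 to 0.39 and -2.33 to 4.24. With the replicate block it was -2.09, -1.24, -1.61, -0.75 and 0.86. For BACHD+Foxp2 over BACHD+Con it was 3.09 without the 2 libraries highest in Ttr and 0.56 without the 7, and for Con+Foxp2 over Con+Con 0.46 without the 7. With single mice left out, between 0 and 4, 0 and 10, 0 and 7, 0 and 9, and 0 and 10 of the 10 genes were above 0. Without the 2 libraries farthest from the median of Ttr, 0 relations to Ttr passed, for the 10 genes and for the lists; with 5 or 7 libraries this count says nothing about stability. Relations with group means removed were not run within the ranges of Ttr, where some groups have 1 mouse. Over all alternatives, 216 of the main summary values kept to their size or call and 33 moved. The main values include the counts of the 10 genes called, which were 0 throughout. Of the other values 257 kept, 57 moved and 20 changed sign. The moved ones include numbers of the 10 genes above 0. The sign changes are those of the log2 fold change of Ttr, in 20 combinations of alternative and comparison. At 3 reads per 0.818 to 1.13 CPM, Aqp1, Kcne2, Otx2, Folr1 and Sostdc1 are at their counting limit in low libraries.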
